A study of Homo sapiens with 2 samples.

Results

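The NADPH oxidases are a family of membrane enzymes that pass electrons from NADPH to oxygen, and in this work the family was represented by 10 genes chosen by symbol: the catalytic subunits NOX1, NOX4, NOX5 and CYBB, the dual oxidases DUOX1 and DUOX2, the maturation factor DUOXA2, the cytosolic regulators NOXO1 and NOXA1, and the membrane partner CYBA. Of these, 7 had a probe set with a gene symbol and were measured among 13753 named genes, and for NOX5, CYBB and CYBA only the promoter sequence was examined here. Total RNA came from HT29, an established cell line of human colon adenocarcinoma, after transfection with either a control siRNA or an siRNA that targets the zinc finger transcription factor GATA6. Each group was 1 Affymetrix expression array, so the differences have no replicate check and no p-value, and the number of arrays limits their precision. The siRNA acts for a limited time and only in cells that took it up, and the sources used here do not say which of the study's duplexes against GATA6 was used for the array.

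NOX1 is the oxidase best known from colon epithelium, where it makes superoxide. It works with NOXO1, which organizes the complex at the membrane, NOXA1, which activates it, the small GTPase RAC1 and p22phox, the product of CYBA. DUOX2 releases hydrogen peroxide at mucosal surfaces and in the thyroid, and needs DUOXA2 to leave the endoplasmic reticulum. GATA factors and CDX2 have been described as activators of the NOX1 promoter in intestinal cells.

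The deposited values were taken as log2 values that the authors centred on the median of both arrays. Each gene therefore has a pair of values of equal size and opposite sign, and expression levels are lost. Every difference is the value of the GATA6 siRNA array less that of the control siRNA array, in log2 units, and lower and higher describe these arrays alone. Genes past 1.4-fold (0.49 in log2 units) were counted in each direction, since the study's methods use that size for a decrease. The spread inside the arrays was judged from 470 genes with exactly 2 probe sets. The pooled SD of their probe sets about the mean of their gene, called here the SD between probe sets, was 0.19. Over 578 genes with 2 or more probe sets the SD was 0.158, and 0.19 is the SD used here. It compares probe sets on the same 2 arrays, and does not measure the spread between cultures or arrays. All 7 oxidase genes were measured by 1 probe set each, so none had a second reading. The genes were picked with these differences known, and their values are therefore a description.

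The siRNA target was read first. GATA6 had a value of 0.58 in the control siRNA array and -0.58 in the GATA6 siRNA array, which is 2.22-fold lower and 45.0% of the control value. This difference has the direction that the labels imply.

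Silencing of GATA6 was accompanied by a much lower signal of NOX1 and by small differences in every other oxidase gene measured. NOX1 was the only 1 of the 7 genes past 1.4-fold, and none was higher by that size. Among all 13753 named genes, 2.61% were lower past 1.4-fold and 3.56% were higher past it. The median of the 7 oxidase genes was 0.036, compared with 0 over all named genes.

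NOX1 had a value of 0.87 in the control siRNA array and -0.87 in the GATA6 siRNA array. Its difference was -1.74, or 3.34-fold lower, which leaves 30.0% of the control value. NOX1 ranked 4th among the decreases of all named genes, after ANXA10, NMUR2 and CXCR4, and 8 genes had a larger difference in either direction. The proportion left was smaller than that of GATA6 itself. In total RNA from a culture, fewer cells that express NOX1 and less NOX1 RNA per cell cannot be told apart.

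**Figure D1:**
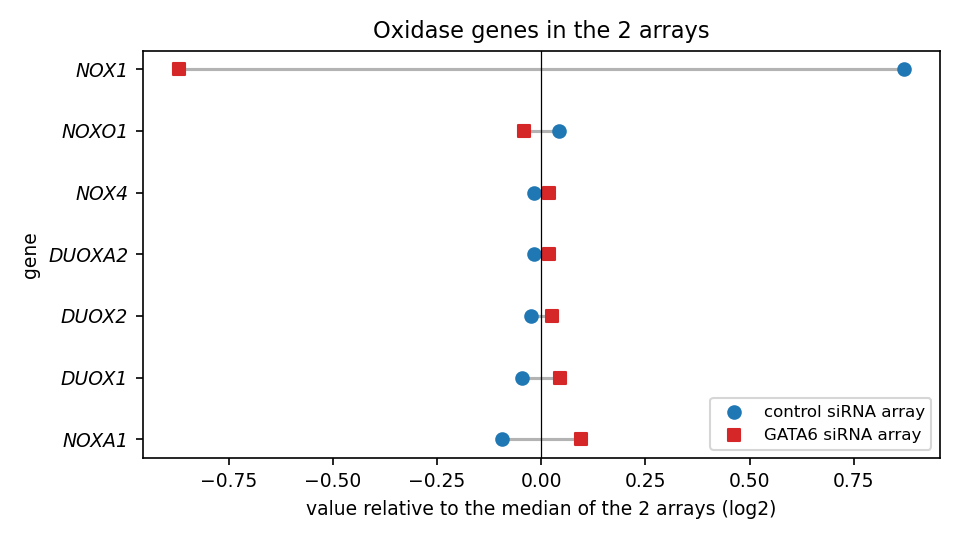
Values of the 7 measured oxidase genes in the control siRNA array (circles) and the GATA6 siRNA array (squares), in log2 units relative to the median of the 2 arrays. The grey line of NOX1 spans from 0.87 to -0.87, whereas the lines of the other 6 genes stay between -0.10 and 0.10.

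The cytosolic partners of NOX1 did not share its difference. NOXO1, the organizer, had values of 0.042 and -0.042 in the control and GATA6 siRNA arrays. This is a difference of -0.084 (1.06-fold lower), which turns to 0.037 when both arrays are centred on the ribosomal protein genes, a change of scale that adds 0.12 throughout. NOXA1, the activator, had values of -0.095 and 0.095, a difference of 0.19 (1.14-fold higher). It was the member nearest to 1.4-fold after NOX1, at about the SD between probe sets of 1 gene, and 27.6% of named genes had a larger absolute difference. With the same centring NOXA1 was 0.31, above that SD and still short of 1.4-fold. The gap between NOX1 and NOXO1 was -1.65 and that between NOX1 and NOXA1 was -1.93. Such gaps do not depend on a constant added to 1 array.

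The other catalytic subunit measured was NOX4, an oxidase that is active without cytosolic regulators and mainly yields hydrogen peroxide. Its values were -0.017 and 0.017 in the control and GATA6 siRNA arrays, and its difference was 0.035 (1.02-fold higher). NOX4 lay near the middle of all genes, with 75.3% of them at a larger absolute difference.

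The dual oxidases carry calcium-binding EF hands and a peroxidase-like domain besides the oxidase core. DUOX1 had values of -0.045 and 0.045 in the control and GATA6 siRNA arrays, a difference of 0.090 (1.06-fold higher). DUOX2 had values of -0.025 and 0.025, a difference of 0.049 (1.03-fold higher). DUOXA2, which lies next to DUOX2 and is read in the opposite direction, had values of -0.018 and 0.018 and a difference of 0.036 (1.03-fold higher). These 3 genes were all slightly higher in the GATA6 siRNA array, but as deposited by less than the SD between probe sets. After centring on ribosomal protein genes they were 0.21, 0.17 and 0.16, and DUOX1 then passed that SD of 0.19.

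Apart from NOX1, the 6 oxidase genes ranged from -0.084 to 0.19 with a median of 0.043. That range also held 60.6% of all named genes. Since the values keep no expression level, whether the 6 genes were expressed in HT29 cells is unknown, and a gene near background would also have a difference near 0.

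**Figure D2:**
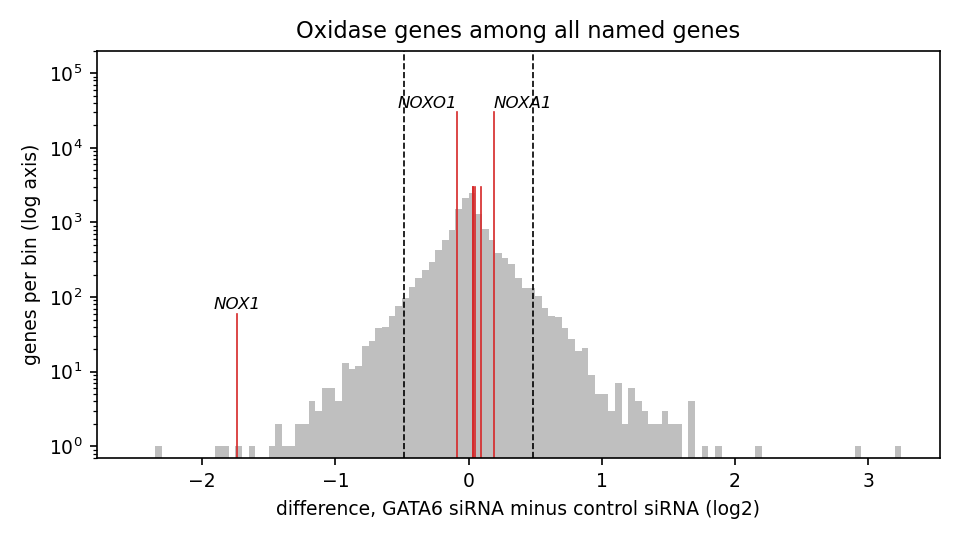
Histogram of the differences (GATA6 siRNA minus control siRNA, log2) of 13753 named genes in bins on a log axis, with a red line at each of the 7 oxidase genes and dashed lines at 1.4-fold. NOX1 at -1.74 stands in the far left tail, and the other lines lie between NOXO1 at -0.084 and NOXA1 at 0.19.

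To show the DNA around the start of NOX1, a promoter window was taken from RefSeq (build GRCh38.p14), running from 250 bases before to the first 50 bases of the gene. All 10 oxidase genes had such a window. Each was searched on both strands for the GATA motif, which is GATA preceded by A or T and followed by A or G. The NOX1 window, at chrX:100874310-100874609 on the minus strand, held 5 matches, and it is printed because NOX1 is the gene that differed. The window of NOXO1, its partner, at chr16:1981420-1981719 on the minus strand, and that of DUOX2, at chr15:45114123-45114422 on the minus strand, held 0 matches and are given for comparison. Capitals mark the matches, read 5′ to 3′ on the strand of the gene.
NOX1: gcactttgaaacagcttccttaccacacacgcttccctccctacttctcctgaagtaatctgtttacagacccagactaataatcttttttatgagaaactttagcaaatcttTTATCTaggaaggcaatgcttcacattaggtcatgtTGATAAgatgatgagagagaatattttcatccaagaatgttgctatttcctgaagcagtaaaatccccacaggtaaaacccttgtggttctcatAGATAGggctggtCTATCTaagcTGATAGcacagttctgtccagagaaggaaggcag
NOXO1: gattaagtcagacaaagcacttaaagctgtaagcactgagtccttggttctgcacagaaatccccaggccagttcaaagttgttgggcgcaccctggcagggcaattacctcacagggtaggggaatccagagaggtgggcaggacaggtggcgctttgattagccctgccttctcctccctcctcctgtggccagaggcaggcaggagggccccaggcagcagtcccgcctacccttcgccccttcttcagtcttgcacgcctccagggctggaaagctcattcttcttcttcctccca
DUOX2: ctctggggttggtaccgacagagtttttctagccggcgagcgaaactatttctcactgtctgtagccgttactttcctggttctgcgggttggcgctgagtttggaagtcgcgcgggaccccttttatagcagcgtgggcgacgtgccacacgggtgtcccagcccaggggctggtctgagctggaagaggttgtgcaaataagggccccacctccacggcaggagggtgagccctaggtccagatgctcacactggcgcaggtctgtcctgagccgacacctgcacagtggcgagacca

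Counted to the first base of each match, with the RefSeq start as position 1 and no position 0, the NOX1 matches began at positions -137, -101, -7, 7 and 17. The matches at -101, -7 and 17 read in the direction of the gene, those at -137 and 7 in the opposite direction, and none overlapped another. Among 35116 promoter windows of the same length, 25.0% held at least 1 match and 22 windows (0.0626%) held 5 or more. With GATA alone as the motif, 49.7% of windows held a match, and 1.48% held at least the 5 found in the NOX1 window. The NOX1 window had a GC content of 40.3%, compared with a median of 58.7% over all windows, and a motif rich in A and T is met more often in such sequence.

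Of the other genes measured, NOX4 (3 windows), DUOX1, DUOX2, DUOXA2, NOXO1 and NOXA1 held 0 matches. With GATA alone, the NOX4 windows held 1, 0 and 3 and the NOXA1 window 1. DUOX1, DUOX2, DUOXA2 and NOXO1 stayed at 0 with that looser motif. The windows of DUOX2 and DUOXA2 overlap by 253 bases, so they are not separate observations. Among the genes without a probe set named here, CYBB held 2 matches, NOX5 held 1 and CYBA held 0. Their counts of GATA alone were 2, 2 and 0. A match describes the sequence only, and binding of GATA6 to these windows was not tested.

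**Figure D3:**
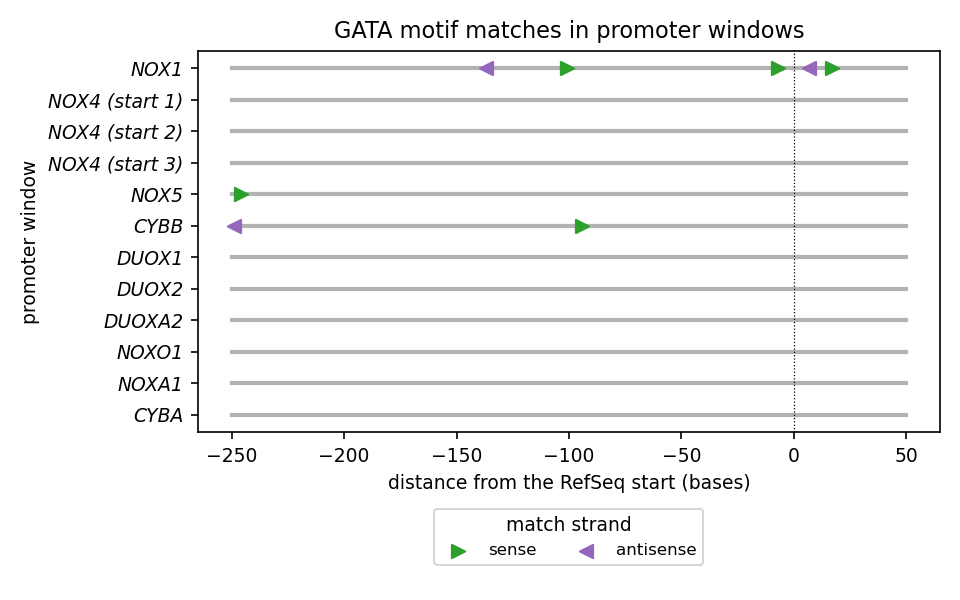
Promoter windows of the 10 oxidase genes as grey lines, with the distance from the RefSeq start in bases on the x axis and arrowheads at the first base of each GATA motif match on the sense or antisense strand. The NOX1 window carries 5 arrowheads, CYBB 2, NOX5 1 and the other windows 0.

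Genes around the oxidases were examined in the same way, as lists whose results were partly known when they were chosen. Further parts of the oxidase complexes showed no gene past 1.4-fold among 6 named of 15 listed, and their median was 0.16. With 2.61% of all named genes lower and 3.56% higher by that size, no gene among 6 lies near those shares. The largest differences were those of SH3PXD2A, an organizer-like scaffold of invadopodia (0.33), and CYBC1, a chaperone of the phagocyte oxidase (0.28). NOX3, the oxidase of the inner ear, had a difference of -0.0036, and HVCN1, a proton channel that balances the charge moved by phagocyte oxidase, of -0.063, and both turn positive after centring on ribosomal protein genes. RAC1 was not analysed here.

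Enzymes that remove superoxide and peroxide gave 1 lower and 0 higher genes among 12 named of 16 listed. Over all named genes, 2.61% were lower and 3.56% higher past 1.4-fold. PRDX1, a cytosolic peroxiredoxin that reduces hydrogen peroxide, was 1.63-fold lower (-0.70). GPX2, the glutathione peroxidase of the gut epithelium, had a difference of -0.43 and did not reach 1.4-fold. The median of the list was -0.075, and 0.046 after centring on ribosomal protein genes. Haem peroxidases, which use hydrogen peroxide, had 0 of 4 named genes past 1.4-fold. Their farthest values were -0.22 for MPO, the neutrophil myeloperoxidase, and 0.048 for PXDN, a peroxidase of basement membranes.

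Other oxidases that yield hydrogen peroxide included 2 higher and 0 lower genes among 10 named of 11 listed, with a median of 0.099. The shares over all named genes were 3.56% higher and 2.61% lower. QSOX1, which forms disulfide bonds in secreted proteins, was 2.65-fold higher (1.41), and MAOA, a mitochondrial amine oxidase, was 1.77-fold higher (0.82). In absolute size, the difference of QSOX1 was the closest to that of NOX1 among the listed oxidases, and its sign was the opposite. The NADPH suppliers had 0 of 4 named genes past 1.4-fold, with -0.38 for PGD of the pentose phosphate pathway and 0.27 for NNT, the mitochondrial transhydrogenase, as the farthest. The median of this list was 0.13.

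Among transcription factors linked to the NOX1 or DUOX promoters, 10 of 14 listed genes were named, and 1 was lower and 1 higher by over 1.4-fold. The shares over all named genes were 2.61% lower and 3.56% higher. GATA6, the siRNA target, was the lower gene of the list, so that count follows from the siRNA. STAT3, a mediator of cytokine signals, was 1.59-fold higher (0.67). The other intestinal GATA genes differed by 0.047 for GATA4 and -0.0056 for GATA5, and CDX2, a colon determinant, by 0.024, and GATA5 turns positive after the same centring. The median of the list was -0.011, or 0.11 on that scale. IRF1, an interferon-induced factor, had a difference of 0.44, which passes 1.4-fold only after centring on ribosomal protein genes.

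Genes of epithelial defence, a list of the kind that rises with DUOX2 in inflamed mucosa, had 0 of 8 named genes past 1.4-fold. Over all named genes 2.61% were lower and 3.56% higher by that size, so 0 of 8 lies near those shares. The median of the list was -0.042, which turns to 0.079 after centring on ribosomal protein genes. The farthest were CXCL8, a neutrophil chemokine (0.32), and S100A9, a calprotectin subunit (-0.28). DUOX2 itself, at 0.049, lay inside this range.

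Among colon epithelial markers, 3 of 7 named of 8 listed genes were higher and 0 lower past 1.4-fold. Of all named genes, 3.56% were higher and 2.61% lower by that size. All 7 were above 0, as were 48.3% of all named genes, and VIL1 at 0.016 and CDX2 at 0.024 lay close to 0. The median of the list was 0.36 and its highest value 1.89 for KRT20. KRT20, a keratin of differentiated colon cells, was 3.70-fold higher, KRT19 was 1.45-fold higher and EPCAM 1.41-fold higher, and the difference of EPCAM falls below 1.4-fold with quantile normalization (0.46). Their part in the NOX1 difference was not tested. Phagocyte markers, of interest because CYBB is the phagocyte oxidase, had 0 of 6 named genes past 1.4-fold and a median of 0.014, with LYZ at 0.47 as the highest. Thyroid markers, included because DUOX2 is best known there, had 0 of 4 past 1.4-fold, and lay between -0.12 for PAX8 (0.0027 after centring on ribosomal protein genes) and 0.021 for TG. Whether any of these markers was expressed is not known from values without levels.

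**Figure D4:**
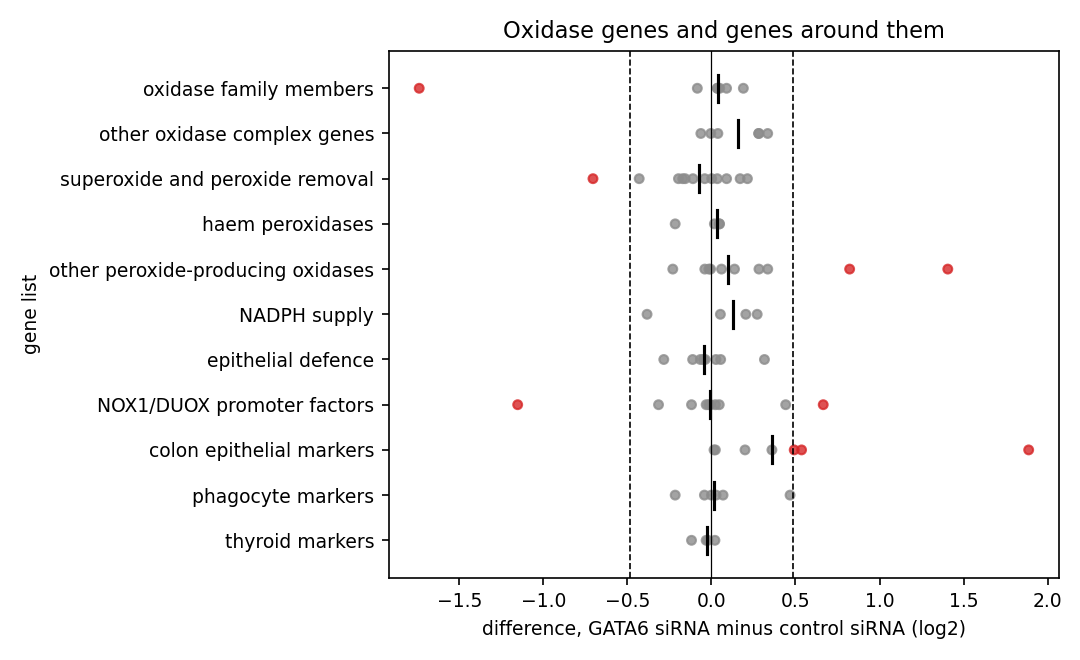
Differences (GATA6 siRNA minus control siRNA, log2) of the named genes of 11 lists, 1 point per gene, with the list median as a black bar and dashed lines at 1.4-fold. Points past 1.4-fold are red, and NOX1 at -1.74 is the lowest of all, followed by GATA6 at -1.15.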

How the data were processed

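Per the study's methods, RNA of HT29 cells was run on 1-color Affymetrix Human Gene 2.0 ST arrays and analysed with GeneSpring. The authors deposited 1 table of log2 values for 44629 probe sets on 2 arrays, in which the values of a row are equal and opposite within 1e-06. Base 2 is assumed. Summarization, normalization and the meaning of "reanalyzed" in the control's title are not stated in the sources used here. The array's annotation gave 1 symbol to 15835 probe sets. The other 28794, without a symbol or with more than 1, were not assigned to a gene. After 1059 small RNA symbols were set apart, 13753 genes remained, each valued at the mean over its probe sets (pandas 2.3.3). Groups followed the labels. No test between groups was run, and the counting was tested on simulated data. Members and lists were chosen with earlier results of these data known. Named genes were all members, GATA6, and per list the genes past 1.4-fold and the 2 farthest. ANXA10, NMUR2, CXCR4, NOX3, HVCN1, GATA4, GATA5, CDX2, IRF1, VIL1 and TG were named after their values were seen. Alternatives were scaling, quantile normalization, probe set summary, fold size, background genes and motif. The planned comparison of proteins was not run.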

Additional observations from a re-analysis of the deposited data

How the results depend on the processing

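With 1 array per group no replicate could be left out, and how bright the probe sets were cannot be read from the table. No paired analysis was possible because the groups hold a single array each. NOX1 was -1.95 with quantile normalization and -1.62 after centring on the ribosomal protein genes, which shifts the median of all genes by 0.12. In 41 of 42 recomputed values, the oxidase genes moved by less than 0.19, the SD between probe sets, but most of these were fixed by construction. Summary by median, largest or smallest probe set changed nothing, since each gene had 1 probe set. Leaving out probe sets at 0 also changed nothing, since none of theirs was at 0 in both arrays. The centring adds 0.12 to each gene. Only quantile normalization could move a gene further, and it did so for NOX1. With mirrored columns, it averages the size of each probe set with that of the probe set at the opposite rank. It therefore cannot check the scaling between the arrays, and the changes in NOX1 and EPCAM arise in this way. NOX1 was the only oxidase gene past 1.2-fold, 1.4-fold and 2-fold as deposited, and past 1.4-fold under both scalings. The 1.2-fold and 2-fold sizes were not counted under those scalings, and NOXA1 was 0.31 after centring on ribosomal protein genes. Over all genes, 1190 were lower and 1408 higher at 1.2-fold, and 33 and 50 at 2-fold. After centring on ribosomal protein genes, 199 were lower and 837 higher, so the lower share was 19.2%. As deposited it was 42.3% (359 and 489). With quantile normalization it was 50.8%, but a near-even split was fixed by construction there. Because the 2 columns mirror each other, that step makes the differences over all probe sets symmetric about 0. The centring on ribosomal protein genes also gave 2 higher transcription factors, STAT3 and IRF1, and 1 higher phagocyte marker, LYZ. The SD between probe sets was 0.158 over genes with 2 or more probe sets. GATA alone was found in 49.7% of windows.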
